A study of Malus domestica with 16 samples.

Results

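The primary wall of a fruit cell is a network of cellulose tied by xyloglucan and embedded in pectin. Xyloglucan endotransglycosylases cut and rejoin xyloglucan, expansins loosen the contact between wall polymers without cutting them, and beta-galactosidases, pectate lyases, polygalacturonases and pectin esterases trim or cleave pectin and its side chains. Such enzymes are known for their part in fruit growth and in softening during ripening, and many of them respond to ethylene.

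The 39 cell wall genes described here were chosen by the function names in the readable part of the study's annotation table of responsive genes, where the name held a term such as expansin, pectin, pectate, xyloglucan, galactosidase, glycosyl hydrolase or arabinogalactan. Kinases and 5 wall genes that the study discusses were left out, while MDP0000247204, which the study also names, was kept. They are 39 of the 1483 genes in those rows and of 59352 sense probes on the array. Gene names are matches to Arabidopsis proteins, so each role given below is that of the matched family. The names cover 5 xyloglucan endotransglycosylases, 6 beta-galactosidases, 3 expansins, 6 pectin-acting enzymes, 5 invertase/pectin methylesterase inhibitors, 10 glycosyl hydrolases and 4 other wall genes. Not all are settled wall enzymes, since glycosyl hydrolase families also hold chitinase-type and beta-glucosidase-type proteins.

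Peel RNA of Granny Smith apples was measured after 6 months of cold storage in fruit given 1-MCP and stored in O3 (1-MCP+O3), 1-MCP alone, O3 alone, or neither (Control). 1-MCP binds ethylene receptors and so keeps fruit from sensing ethylene. It was given for 24 h at a dose that the labels give as 1000 ppm and the methods give differently, and O3 was supplied at 0.3 μl/L. For each group there were 2 RNA extracts, lettered A and B, from samples of 7 fruits, and 8 two-colour arrays paired extracts of the same letter from 2 groups. The first-named group of a comparison was in Cy3 for replicate A and in Cy5 for replicate B, so dye and replicate cannot be told apart within a comparison. No source used here says how the extracts relate to the replicate fruit samples of the study, so p values measure only the spread between these extracts.

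The function names come from a table of genes that the authors called on the same arrays. Its readable rows are almost all genes higher with 1-MCP, since by the present processing 1429 of the other 1444 were above 0 in 1-MCP vs Control. Values in that comparison therefore chose the members and are given as a description only. The comparison of 1-MCP+O3 with O3 used other extracts on other arrays. The table also lists genes that the authors called in it, so its calls are not free of selection either. Calls were made at an unadjusted p below 0.01 in limma's moderated test, the threshold used in the study, and p values were adjusted by Benjamini-Hochberg across every probe. Ratios are log2 means of 2 arrays with their SD (n = 2), first-named group over the second.

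The share of spots well above background ran from 36.1% to 54.9% over arrays and channels. The 5 reference genes that the study used for RT-qPCR, which it had picked as unchanged on these arrays, had mean log2 ratios from -0.47 to 0.37, and none was called. Their arrays could differ widely, as in MDP0000645828, which was at 1.69 and -1.51 on the arrays of 1-MCP+O3 vs O3. Of the wall genes, 38 were well above background in all 4 hybridizations of 1-MCP+O3 and 39 in both of 1-MCP, against 27 in all 4 of O3 and 29 in all 6 of Control. These counts are a description only, since 1-MCP vs Control chose the genes and the number of hybridizations differed between groups. Shares over all sense probes were not counted. In bulk peel, fewer cells of a type and less RNA per cell cannot be told apart.

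In 1-MCP vs Control, the comparison that chose them, all 39 genes were higher in 1-MCP peel, with log2 ratios from 0.50 to 3.39 and a median of 1.47. By the present processing 33 were called higher, where 2.26% of all sense probes were. The member nearest the threshold on the called side was MDP0000126058, with a log2 ratio of 1.08, and the nearest on the other side was MDP0000428284, with 1.66 and a wider spread. The xyloglucan endotransglycosylases had the highest median of any class, 2.80 on the log2 scale, and nothing further is read from these values.

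In 1-MCP+O3 vs O3, which shares no extract with 1-MCP vs Control, all 39 were again higher with 1-MCP on the mean of both arrays. The median log2 ratio was 1.13, or 2.20-fold, and 20 genes were called higher and 0 lower. Among all sense probes 1.37% were called higher and the median was 0.01. The other 1444 genes of the same table rows had a median of 1.00 with 35.8% called higher. So the wall genes moved in the same direction as the rows they were drawn from. No test was made of whether they differed from them. Since the table also lists genes that the authors called in this comparison, selection may have raised both shares called. On the arrays of this comparison both 1-MCP+O3 extracts lay above both O3 extracts for 37 of the 39 genes, against 18.5% of all sense probes and 84.4% of the other table rows. No gene passed an adjusted p of 0.05 in limma, the lowest being 0.422. An unadjusted p under 0.05 in limma was found for 31 wall genes. In either direction it was found for 5392 of 59351 sense probes and 976 of the other 1444 rows. On the processed signals described below 19 wall genes passed the adjusted threshold.

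**Figure D1:**
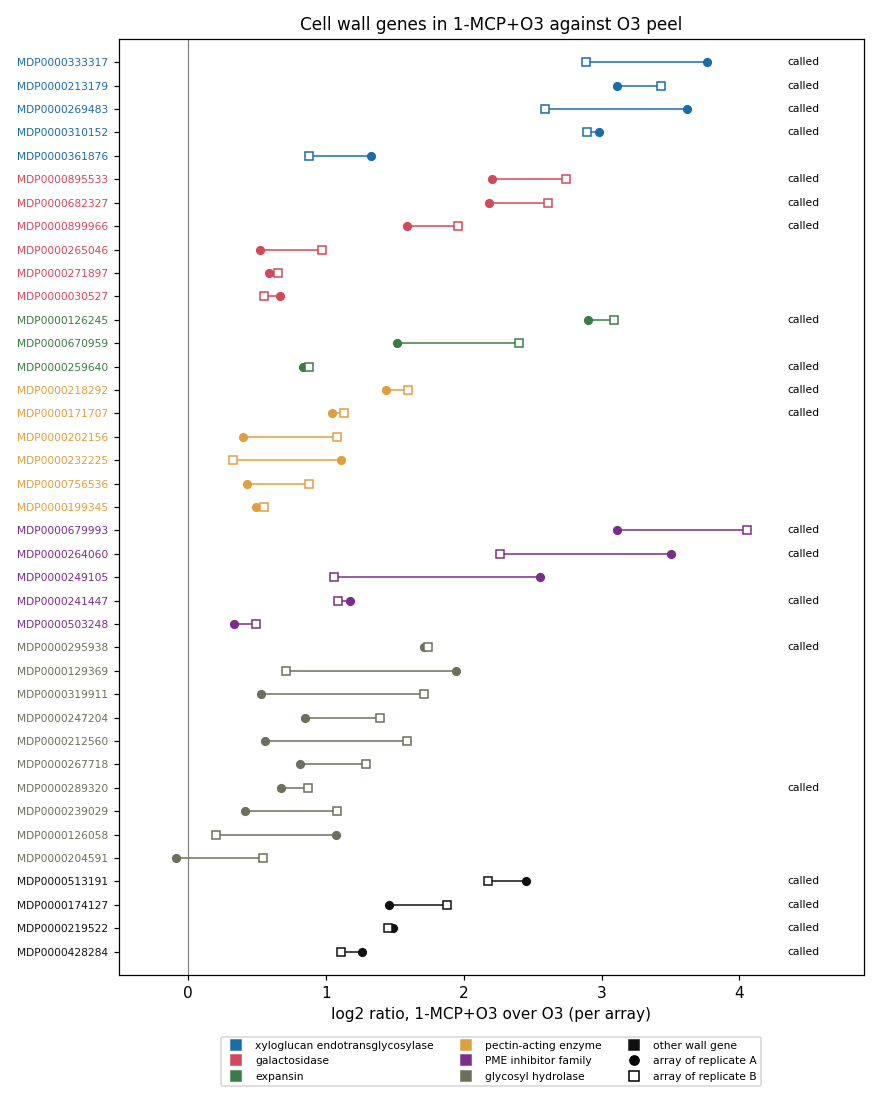
Log2 ratio of 1-MCP+O3 over O3 (horizontal axis) for each of the 39 genes, ordered by class and mean; the filled circle is the array of replicate A, the open square that of replicate B, and the word marks genes called at an unadjusted p under 0.01. Only MDP0000204591 has an array below 0, and 4 xyloglucan endotransglycosylases lie at 2.59 or more on both arrays.

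The xyloglucan endotransglycosylases showed the highest median of the classes in 1-MCP+O3 vs O3, 3.10 on the log2 scale or 8.60-fold, and 4 of 5 were called higher. MDP0000310152 had log2 signals of 13.46 and 13.66 in 1-MCP+O3 and 13.50 and 13.83 in 1-MCP, against 10.92 and 10.74 in O3 and 11.40 and 11.20 in Control, and the 1-MCP groups lay clear of the others. Its ratios in 1-MCP+O3 vs O3 were 2.98 and 2.89 on the 2 arrays (mean 2.94 ± 0.06, adjusted p = 0.422 in limma). For MDP0000213179 the ratios were 3.12 and 3.43, with signals of 14.75 and 15.25 in 1-MCP+O3, 15.01 and 14.63 in 1-MCP, 12.02 and 11.24 in O3 and 12.53 and 12.33 in Control. MDP0000333317 was at 3.77 and 2.89, its signal being 14.10 and 12.85 in 1-MCP+O3, 14.28 and 13.96 in 1-MCP, 11.04 and 10.82 in O3 and 11.16 and 11.43 in Control. In each of these genes the lowest extract with 1-MCP exceeded the highest without it. The 1-MCP and Control extracts chose the genes, so such a separation of the groups is a description only, here and in the classes below. Its share over all sense probes was not counted. MDP0000269483 was also called, at 3.10 ± 0.73. These 4 genes share 1 best match in Arabidopsis, and whether their probes also bind each other's transcripts was not tested. The fifth gene, the XTH9-type gene MDP0000361876, had ratios of 1.33 and 0.88 and was not called. Its signal in O3 peel was not well above background, so the difference is given as at least 2.15-fold, set against the higher of its own O3 signal and the lowest signal well above background on each array.

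Of the beta-galactosidases, which remove galactose from pectin side chains, 3 of 6 were called higher in 1-MCP+O3 vs O3, with a class median of 1.26. The BGAL8-type gene MDP0000682327 had log2 signals of 10.53 and 10.72 in 1-MCP+O3 and 10.66 and 10.67 in 1-MCP, against 8.38 and 8.62 in O3 and 7.91 and 7.89 in Control. Its ratios were 2.18 and 2.61 in 1-MCP+O3 vs O3. The BGAL3-type MDP0000895533 was at 2.20 and 2.75, with signals of 10.67 and 10.86 in 1-MCP+O3, 11.04 and 10.29 in 1-MCP, 8.39 and 8.11 in O3 and 8.69 and 8.70 in Control. Both separated the peel with 1-MCP from the peel without it, again as a description only. A second BGAL3-type gene, MDP0000899966, had ratios of 1.59 and 1.96. The other 3 were not called: the BGAL8-type MDP0000265046 at 0.75 ± 0.32 and MDP0000271897 at 0.62 ± 0.05, and the BGAL3-type MDP0000030527 at 0.61 ± 0.08. They were dim, being well above background in at most 2 of 4 O3 and 1 of 6 Control hybridizations, and on the processed signals, which have no offset, their ratios were 2.40 (MDP0000265046), 2.33 (MDP0000271897) and 2.42 (MDP0000030527) and all 3 were called.

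The 3 expansin-type genes differed among themselves. The expansin-like EXLA2-type gene MDP0000126245 was called higher in 1-MCP+O3 vs O3, with 2.90 and 3.09 on the arrays, or 7.98-fold. Its signal was 11.78 and 10.48 in 1-MCP+O3, 11.54 and 9.68 in 1-MCP, 8.80 and 7.46 in O3 and 8.00 and 7.08 in Control, with replicate A above replicate B in every group. The EXPA13-type MDP0000259640 was called with a ratio of 0.84 and 0.88, and its signal was 7.60 and 7.56 in 1-MCP+O3, 8.39 and 8.32 in 1-MCP, 6.71 and 6.81 in O3 and 7.18 and 7.25 in Control. The EXPA15-type MDP0000670959 had ratios of 1.52 and 2.40 and was not called (adjusted p = 0.529 in limma). Its signals were 14.70 and 15.28 in 1-MCP+O3, 14.98 and 15.76 in 1-MCP, 13.29 and 13.79 in O3 and 13.58 and 13.42 in Control, and 1 of the 2 hybridizations of 1-MCP was saturated.

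The pectin-acting enzymes had the lowest class median, 0.73 in 1-MCP+O3 vs O3, and 2 of 6 were called higher. Both are pectin acetylesterases, which remove acetyl groups from pectin. MDP0000218292 had ratios of 1.44 and 1.60, with signals of 11.27 and 11.33 in 1-MCP+O3, 10.91 and 10.75 in 1-MCP, 10.18 and 9.57 in O3 and 9.87 and 9.97 in Control. MDP0000171707 had ratios of 1.05 and 1.14 on the direct arrays, and it differed from the other genes in a way described below. The polygalacturonase-type MDP0000199345, of the family that cleaves the pectin backbone, was at 0.50 and 0.55 and was not called, and its signals were 8.40 and 8.33 in 1-MCP+O3, 8.30 and 8.21 in 1-MCP, 7.86 and 7.64 in O3 and 7.42 and 7.44 in Control. Also not called were the pectate lyase gene MDP0000232225 at 0.72 ± 0.55 and the pectin acetylesterases MDP0000202156 at 0.74 ± 0.48 and MDP0000756536 at 0.65 ± 0.32.

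Proteins of the invertase/pectin methylesterase inhibitor family bind and block either invertases or the esterases that demethylate pectin, and which of them a given member blocks cannot be read from its name. Of these, 3 of 5 were called higher in 1-MCP+O3 vs O3. MDP0000679993 had the highest ratio of all 39 genes, 3.11 and 4.06 on the arrays, or 12.0-fold on the mean. Its signals were 12.20 and 12.08 in 1-MCP+O3, 11.90 and 11.46 in 1-MCP, 9.17 and 8.61 in O3 and 9.34 and 9.29 in Control. MDP0000264060, which shares its best match, was at 3.51 and 2.26, with signals of 10.89 and 10.08 in 1-MCP+O3, 11.74 and 11.38 in 1-MCP, 7.45 and 7.97 in O3 and 8.07 and 9.17 in Control. MDP0000241447 was at 1.18 and 1.09, and its signals were 8.41 and 7.68 in 1-MCP+O3, 8.40 and 8.14 in 1-MCP, 7.15 and 6.74 in O3 and 6.86 and 6.65 in Control. In all 3 genes the extracts with 1-MCP lay above those without, which is a description only. MDP0000249105 at 1.81 ± 1.06 was not called. Nor was MDP0000503248, for which neither O3 hybridization was well above background and the difference is at least 1.33-fold.

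Of the glycosyl hydrolases 2 of 10 were called higher in 1-MCP+O3 vs O3, with a median of 1.06. Both belong to family 17, whose plant members include enzymes that cut beta-1,3-glucans such as callose. MDP0000295938 had ratios of 1.72 and 1.74, and signals of 10.48 and 11.07 in 1-MCP+O3, 10.34 and 10.87 in 1-MCP, 9.01 and 9.38 in O3 and 9.29 and 9.33 in Control. MDP0000289320 was at 0.68 and 0.87, with 7.94 and 8.04 in 1-MCP+O3, 7.79 and 7.85 in 1-MCP, 7.19 and 7.09 in O3 and 7.11 and 6.96 in Control. The family 1 gene MDP0000267718, of a family of beta-glucosidases, was at 0.82 and 1.29 and was not called. Its signals were 11.22 and 11.59 in 1-MCP+O3, 10.72 and 11.24 in 1-MCP, 10.06 and 10.17 in O3 and 9.56 and 9.37 in Control. The remaining members not called were the family 17 genes MDP0000247204 at 1.12 ± 0.39 and MDP0000319911 at 1.12 ± 0.84, the family 1 gene MDP0000212560 at 1.07 ± 0.73, the family 18 gene MDP0000126058 at 0.64 ± 0.62, the family 20 gene MDP0000129369 at 1.33 ± 0.87 and the family 79 gene MDP0000239029 at 0.75 ± 0.47. The family 1 gene MDP0000204591, not called, had ratios of -0.08 and 0.55, which disagreed in sign. O3 peel was not well above background for it either, and with arrays of both signs its mean of 1.17-fold is no lower bound.

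The 4 other wall genes were all called higher in 1-MCP+O3 vs O3, with a median of 1.57. The extensin-type genes MDP0000513191 and MDP0000219522, named for a pollen allergen and extensin family of structural wall proteins, had ratios of 2.45 and 2.18 and of 1.49 and 1.45. The signals of MDP0000513191 were 12.02 and 11.49 in 1-MCP+O3, 11.56 and 11.66 in 1-MCP, 9.65 and 9.91 in O3 and 9.46 and 9.41 in Control. Those of MDP0000219522 were 8.56 and 8.08 in 1-MCP+O3, 8.07 and 7.81 in 1-MCP, 7.03 and 6.92 in O3 and 6.83 and 6.66 in Control. The AGP20-type arabinogalactan protein MDP0000428284 was at 1.26 and 1.11, with 8.14 and 8.49 in 1-MCP+O3, 9.05 and 8.94 in 1-MCP, 7.30 and 7.10 in O3 and 6.97 and 7.88 in Control. In all 3 the extracts with 1-MCP lay above those without, as a description only. The CSLC5-type gene MDP0000174127, of a family of synthases that make the glucan backbone of xyloglucan, was at 1.46 and 1.88.

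The count of 20 called genes in 1-MCP+O3 vs O3 fell to 5 when ratios were centred on the array median instead of normalized by loess, and the share of sense probes called higher fell to 0.219% in the same step. The median ratio of the 39 was then 1.31, not lower than with loess. On the scanner software's processed signals the median was 2.26 and 26 genes were called, where 1.91% of sense probes and 43.5% of the other table rows were called higher. All 39 were higher under each of these settings. With a single array left out, the spread came from the other comparisons in a joint fit, and the array that remained was assumed to vary as those do. In that fit 4 of the 20 calls were lost: MDP0000171707, MDP0000218292, MDP0000428284 and MDP0000264060 without replicate A, and the first 3 of these and MDP0000289320 without replicate B.

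The same contrast could be formed indirectly, as 1-MCP+O3 vs Control minus O3 vs Control, from the same O3 and 1-MCP+O3 extracts on other arrays. The indirect median was 1.19 and 38 genes were above 0, and the direct and indirect values of a gene differed by a median of 0.20. The widest gap was that of the pectin acetylesterase MDP0000171707, 1.09 on the direct arrays and -0.13 indirectly (0.30 for replicate A and -0.57 for replicate B). The call of this gene rests on the direct arrays, and its indirect ratio, which was not tested, was near 0.

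In 1-MCP+O3 vs Control, which shares the Control extracts with the comparison that chose the genes, 24 of 39 were called higher and 0 lower, with a median of 1.30, where 2.05% of sense probes were called higher. The other table rows had a median of 1.01. The median by class ran from 1.09 in the beta-galactosidases to 2.43 in the xyloglucan endotransglycosylases. The EXLA2-type gene MDP0000126245 had the highest ratio, 3.33 ± 0.08, and the family 17 gene MDP0000247204 was the only one not above 0, at -0.03 and -0.07.

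**Figure D2:**
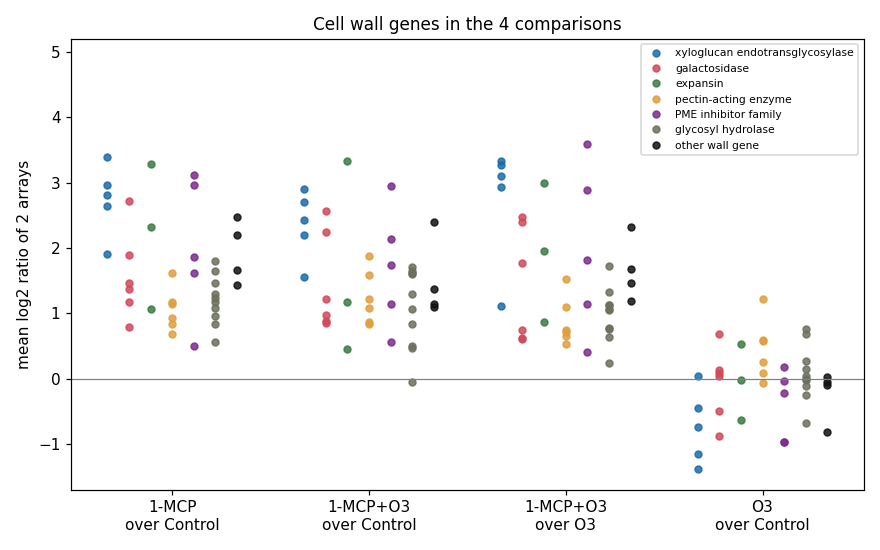
Mean log2 ratio of 2 arrays (vertical axis) of each of the 39 genes in the 4 comparisons, coloured by class, with 1 column of points per class. Points lie above 0 in the 3 comparisons that differ in 1-MCP, except for 1 gene at -0.05 in 1-MCP+O3 over Control, and on both sides of 0 in O3 over Control, where their median is -0.02.

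O3 alone left the wall genes without a common direction. In O3 vs Control 18 were higher and 21 lower, with a median of -0.02, and 16 had arrays that disagreed in sign. This comparison shares the Control extracts with the one that chose the genes, so its ratios may lie too high. The table also lists genes that the authors called in it, so its calls are not free of selection. For 3 of them, MDP0000361876, MDP0000204591 and MDP0000271897, neither group was well above background. At the unadjusted threshold 2 were called higher and 2 lower, where 1.71% of sense probes were called higher and 0.736% lower. No adjusted p was under 0.05 in limma (lowest 0.612). An unadjusted p under 0.05 in limma was found for 14 wall genes, 5133 of 59352 sense probes and 265 of the other 1444 rows. Both genes called higher were pectin acetylesterases. MDP0000171707 was at 1.16 and 1.28 on the arrays. Its signals were 12.22 and 11.59 in 1-MCP+O3, 11.32 and 11.56 in 1-MCP and 11.24 and 11.35 in O3, against 10.44 and 10.21 in Control. Control was the lowest group, which is a description only, since 1-MCP vs Control chose the genes. MDP0000202156 was at 0.61 and 0.56, with 9.43 and 9.10 in 1-MCP+O3, 9.22 and 9.16 in 1-MCP, 8.86 and 8.25 in O3 and 7.98 and 7.56 in Control. The third of this family, MDP0000756536, was at 0.58 ± 0.26 and the fourth, MDP0000218292, at -0.08 ± 0.79, and neither was called.

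The genes called lower in O3 vs Control were the CSLC5-type synthase gene and a BGAL3-type gene. MDP0000174127 was at -0.79 and -0.84 on the arrays, and its signals were 9.30 and 9.53 in 1-MCP+O3, 9.97 and 10.58 in 1-MCP, 7.73 and 7.71 in O3 and 8.18 and 8.31 in Control. MDP0000899966 was at -0.81 and -0.94, with 9.45 and 9.35 in 1-MCP+O3, 9.84 and 9.65 in 1-MCP, 7.62 and 7.63 in O3 and 8.20 and 8.41 in Control. Among fruit given 1-MCP the difference of MDP0000899966 with O3 was -0.14 and -0.67 and was not called, and it was -0.05 without replicate B of 1-MCP+O3 vs Control. The xyloglucan endotransglycosylases were not called. They were at -0.74 ± 0.25 (MDP0000310152), -1.16 ± 0.87 (MDP0000213179), -1.38 ± 0.81 (MDP0000269483) and -0.45 ± 0.79 (MDP0000333317), and MDP0000361876 was not well above background in either group.

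Whether these 4 genes passed the threshold depended on the processing, more than the size of their ratios did. On the processed signals the only call was that of the xyloglucan endotransglycosylase MDP0000269483, lower at -1.55, under median centring there were 0 calls, and with dim probes left out MDP0000171707 alone remained. The ratios were 1.32 on processed signals and 1.06 under median centring for MDP0000171707, 0.86 and 0.50 for MDP0000202156, -1.21 and -0.94 for MDP0000174127, and -1.20 and -1.03 for MDP0000899966. In the joint fit with an array left out 2 genes were called without replicate B and 5 without replicate A. When O3 vs Control was estimated from all 8 arrays together, a fit that takes repeated hybridizations as independent, MDP0000171707 was at 0.81 (adjusted p = 0.25 in limma). The other 3 passed an adjusted p of 0.05 in that fit, with MDP0000174127 at -0.72, MDP0000899966 at -0.85 and MDP0000202156 at 0.55.

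**Figure D3:**
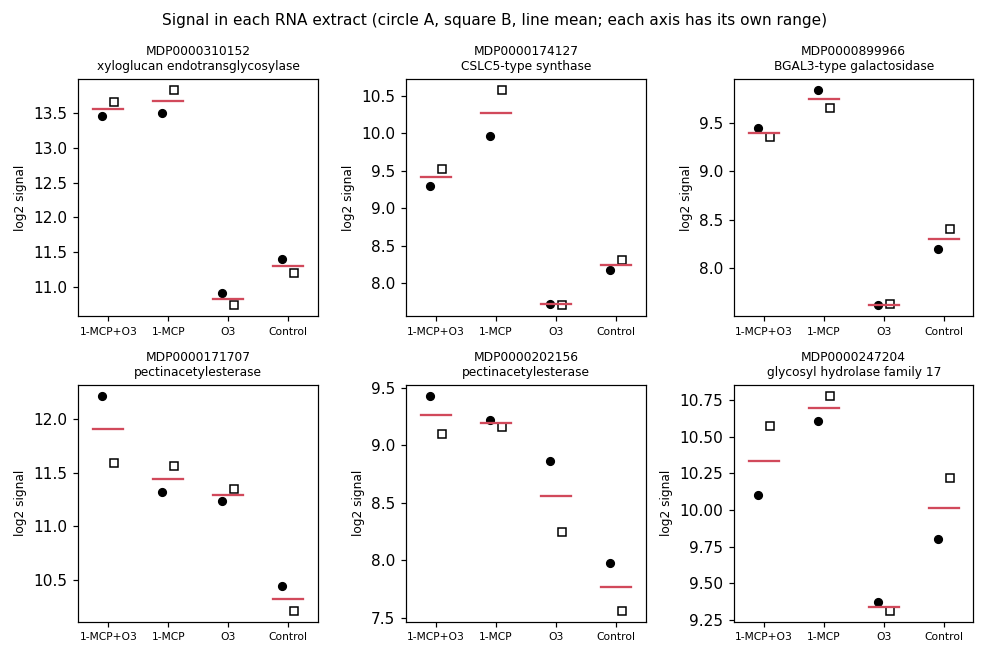
Log2 signal in each RNA extract (vertical axis, a separate range per panel) in 1-MCP+O3, 1-MCP, O3 and Control for 6 genes; the circle is replicate A, the square replicate B and the line their mean. In O3 over Control MDP0000174127 and MDP0000899966 were called lower. Control is the lowest group in MDP0000171707, a description only, since 1-MCP over Control chose the genes.

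Among fruit given 1-MCP, the difference that O3 made was taken as 1-MCP+O3 vs Control minus 1-MCP vs Control, in which the Control extract cancels. Because the second term chose the genes and may lie too high, this difference may lie too low, and it also spans the 2 slides. The median was -0.10 over the 39 genes and -0.23 over the other table rows, and 2 genes were called lower and 0 higher, where 0.273% of sense probes were called lower. MDP0000174127 was at -1.02 and -1.09 and the family 17 gene MDP0000247204 at -1.02 and -0.73. Mean ratios of the 39 ran from -1.37 to 0.74. The lowest, not called, were those of MDP0000264060 (-1.205 and -1.54) and MDP0000670959 (-1.33 and -0.98). The test did not match replicate letters between the 2 comparisons. The signals of MDP0000247204 were 10.10 and 10.57 in 1-MCP+O3, 10.61 and 10.78 in 1-MCP, 9.37 and 9.31 in O3 and 9.80 and 10.22 in Control. Both calls were lost on the processed signals, under median centring and with dim probes left out, with MDP0000174127 then at -0.73, -0.85 and -1.05 and MDP0000247204 at -0.99, -0.62 and -0.88. MDP0000174127 was called lower with O3 both among fruit given 1-MCP and in O3 vs Control, and its response to 1-MCP with O3 minus that without was -0.65 and -0.39 on the 2 replicates and was not called. MDP0000202156 was at -0.43 and -0.36 with 1-MCP, against 0.61 and 0.56 without it.

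Whether the response to 1-MCP differed with O3 was asked as 1-MCP+O3 vs O3 minus 1-MCP vs Control, 2 pairs of arrays with no extract in common. The selection and the slide bear on this difference too, since each comparison was on 1 slide and slide and O3 cannot be told apart here. The median was -0.23 for the wall genes and -0.26 for the other table rows, with 28 wall genes below 0. By limma 0 genes were called in either direction, where 0.199% of sense probes were called lower. An unadjusted p under 0.05 in limma was found for 1450 of 59351 sense probes, 219 of the other 1444 rows and 5 wall genes. The 5 wall genes were MDP0000213179 at 0.64 and MDP0000218292 at 0.59 above 0, and MDP0000241447 at -0.48, MDP0000199345 at -0.32 and MDP0000202156 at -0.87 below it. A difference in the response to 1-MCP was not detectable for these genes with 2 extracts per group, which does not show that the responses were alike.

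Each of the 39 genes also has a probe against the other strand. In 1-MCP+O3 vs O3, 7 of these antisense probes were called, all higher, where 0.662% of all antisense probes were called in either direction. Among the antisense partners 32 were above 0 and the median was 0.21. The called partners belonged to MDP0000310152, MDP0000213179, MDP0000269483 and MDP0000333317, the 4 xyloglucan endotransglycosylases that share a best match, with log2 ratios of 2.04, 2.27, 1.96 and 2.22, to the inhibitor family genes MDP0000679993 at 1.68 and MDP0000264060 at 0.99, and to the EXPA15-type expansin MDP0000670959 at 1.51. Their own sense probes were at 1.96 to 3.58. Across the 39 genes, which are not independent replicates and share the same arrays, sense and antisense ratios correlated at a Pearson r of 0.79. In 13 genes the antisense probe was not well above background in any of 16 hybridizations, and in 7 it was above background in all 16. In the difference between the responses to 1-MCP with and without O3, 3 antisense partners were called lower, where 0.0471% of antisense probes were. The comparison that chose the genes is subtracted in this difference, which may therefore lie too low. Whether the antisense signal came from transcripts of that strand or from labelled product of the sense strand was not tested.

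**Figure D4:**
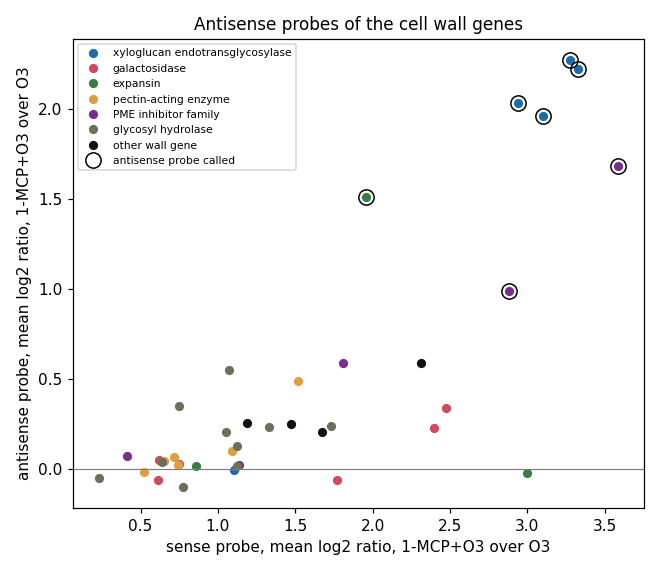
Mean log2 ratio of 1-MCP+O3 over O3 for the sense probe (horizontal axis) and the antisense probe (vertical axis) of each of the 39 genes, coloured by class; rings mark the 7 antisense probes called. The ringed genes have sense ratios of 1.96 or more, and the EXLA2-type gene has a sense ratio of 3.00 with an antisense ratio near 0.

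The 5 wall genes left out of the 39 had values in both directions. In 1-MCP+O3 vs O3 the beta-galactosidase gene MdBGal1 (MDP0000416548) fell by 2.68 on the log2 scale and was called, and the pectin methylesterase gene MdPME2 (MDP0000222620) was at -1.15 ± 0.36 and was not. The expansin-like gene MdEXLA (MDP0000568045) was at 0.10 ± 0.59, and the glucanase-type genes MDP0000404948 and MDP0000327191 were at 1.06 ± 1.35 and -1.94 ± 0.23, of which the last was called. Beta-galactosidase genes were thus called in both directions in the same comparison.

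Genes of the chloroplast and the cuticle, on lists made from the same function names, moved with the same contrast. The lists come from the table rows that held the wall genes, almost all higher with 1-MCP, so their values are a description only. Of 50 chloroplast genes in the same table rows, named for photosystems, light harvesting, chlorophyll binding or rubisco, 50 were higher in 1-MCP+O3 vs O3, with a median of 2.35, and 27 were called. Their median log2 signal was 10.40 and 9.56 in 1-MCP+O3 and 10.45 and 9.88 in 1-MCP, against 7.53 and 7.19 in O3 and 7.14 and 6.93 in Control. In Control 29 of the 50 were well above background in all hybridizations and 9 in none. Of 8 genes with a name for cuticle, wax or lipid transfer, which mark the epidermis of the peel, 8 were higher, with a median of 1.35, 7 were called, and 7 were above background in all Control hybridizations. Shares called higher in 1-MCP+O3 vs O3 were 1.37% of all sense probes and 35.8% of the table rows other than the wall genes. In O3 vs Control the medians were 0.13 for the chloroplast genes and -0.23 for the cuticle genes. Their part in the values of the wall genes was not tested.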

How the data were processed

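Spots were quantified by the authors with Agilent Feature Extraction. The deposited values used are raw: a median intensity for the spot and another for its surroundings, in both dyes. Deposited processed intensities had been background-subtracted and dye-normalized by that software, per the file headers. Other deposited columns are flags, scored by the software for outliers, saturation and signal well above background. Each array has 14 measurement columns that were read here and 19 that were left aside. The authors normalized by lowess and tested with limma, per the methods.

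Median intensities were corrected for background (normexp, offset 50), and loess was applied to the log2 ratios of each array. Outlier spots were left out, spots of 1 probe were averaged (23 of the 39 genes have 2 spots) and signs were set so that the first-named group is on top. Each comparison was fitted over its 2 arrays with limma 3.58.1 in R 4.3.3 (lmFit and eBayes) over all 133709 probes, and derived contrasts used 4 arrays. Each array pairs extracts of 1 replicate letter, so the fit of a comparison holds the replicate as a block. In derived contrasts the replicate letter was not matched between the 2 comparisons. A spread shared by letter therefore stays in their p values. Signals per extract are log2 values after loess and quantile scaling of the average intensity, averaged over hybridizations. The procedure was tested on simulated data.

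The members, classes and lists were chosen with earlier results of these data known. All members are named, with values per array and extract for the 3 of each class with the smallest p in 1-MCP+O3 vs O3 and for those called in O3 vs Control, in the O3 difference among 1-MCP fruit or in the interaction. The annotation table was used for names in its 1483 readable rows, and its columns of the authors' own ratios and calls were not used. Alternatives were no background correction, processed signals, median centring, a filter on dim probes, all 8 arrays with dye terms, no replicate block, trend and robust options, 2 other thresholds, each array left out, and 36 genes up to the last readable probe number. No sequences are shown, and RT-qPCR, protein and metabolite data were not analysed here.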

Additional observations from a re-analysis of the deposited data

Results flagged for a closer look

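The antisense probes of 3 wall genes responded less to 1-MCP with O3 than without it, by a test of the difference itself in limma at an unadjusted p under 0.01. The difference was -1.20 for the inhibitor family gene MDP0000264060 (adjusted p = 1 in limma), -0.67 for the extensin-type gene MDP0000513191 and -0.55 for the EXPA15-type gene MDP0000670959, and both replicates had this direction in each. Of all antisense probes 28 of 59388 were called lower and 49 higher. The subtracted term, 1-MCP vs Control, chose the genes by their sense probes, and sense and antisense ratios correlated there (Pearson r of 0.74). The differences may therefore lie too low. The sense probes of MDP0000264060 and MDP0000513191 differed by -0.23 and -0.17 and were not called, and that of MDP0000670959 was saturated in 1 of 2 hybridizations of 1-MCP.

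MdBGal1 (MDP0000416548), a beta-galactosidase gene that is not among the 39, fell less with 1-MCP in the presence of O3, at -2.68 ± 0.32 in 1-MCP+O3 vs O3 and -3.89 ± 0.19 in 1-MCP vs Control, a difference of 1.21 that was called by the same test (adjusted p = 1 in limma). Slide and O3 cannot be told apart in these differences.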

How the results depend on the processing

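The direction of the median in the 3 comparisons that differ in 1-MCP was the same under every alternative run for it, from 1.12 to 2.26 in 1-MCP+O3 vs O3, but most counts of calls changed with the setting. With an array left out, the spread came from the other comparisons in a joint fit. Median centring gave 5 genes called in 1-MCP+O3 vs O3, 0 in O3 vs Control, 7 in 1-MCP+O3 vs Control, 9 in 1-MCP vs Control, 0 for O3 among 1-MCP fruit and 3 antisense partners. Of all sense probes it called 0.219% higher in 1-MCP+O3 vs O3 and 0.13% in either direction in O3 vs Control. With all 8 arrays and a dye term per slide, a fit that takes repeated hybridizations as independent, the counts were 37, 14, 37, 37, 5 and 13, and 5 genes were called in the interaction. In that fit 8.53% of sense probes and 82.5% of the other table rows were called higher in 1-MCP+O3 vs O3. Sense probes called were 9.94% in O3 vs Control, 4.26% for O3 among 1-MCP fruit and 3.53% in the interaction. An unadjusted p under 0.05 gave 31 in 1-MCP+O3 vs O3, 14 in O3 vs Control, 6 for O3 among 1-MCP fruit, 5 in the interaction and 11 antisense partners, and an adjusted p under 0.05 gave 0 throughout with the other choices unchanged. The unadjusted threshold was passed by 2206 of 59352 sense probes for O3 among 1-MCP fruit and by 1630 of 59388 antisense probes in 1-MCP+O3 vs O3. For O3 vs Control, processed signals gave 1, the filter on dim probes 1 and leaving out an array 2 to 5. For O3 among 1-MCP fruit no background correction gave 1, and processed signals, the filter, the trend and robust options and the fit with no replicate block gave 0, while leaving out an array gave 1 to 2. In the interaction leaving out an array gave 0 to 3, the 3 without replicate B of 1-MCP+O3 vs O3. Without the replicate block 23 genes were called in 1-MCP+O3 vs O3, of which 18 were among the 20, and each call of that comparison except 4 remained without replicate A and likewise without replicate B. An adjusted p under 0.05 was reached there by 19 genes on processed signals, 36 with all 8 arrays, 7 with the trend and robust options and 1 without replicate B. Over the 36 genes up to the last readable probe number 18 were called. Of all sense probes 2.14% were called higher in 1-MCP+O3 vs O3 without the replicate block.

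Single genes changed sign only where they were not called. In 1-MCP+O3 vs O3, MDP0000204591 ran from -0.084 to 0.55 over the arrays left out. In O3 vs Control the ranges were -0.63 to 0.48 (MDP0000218292), -0.11 to 0.16 (MDP0000219522), -0.021 to 0.37 (MDP0000241447), -0.065 to 0.021 (MDP0000289320), -0.17 to 0.25 (MDP0000295938), -0.55 to 0.44 (MDP0000428284), -0.35 to 0.15 (MDP0000513191), -0.25 to 0.032 (MDP0000129369), -1.05 to 0.61 (MDP0000249105), -1.005 to 0.11 (MDP0000333317), -0.13 to 0.22 (MDP0000030527), -1.02 to 0.52 (MDP0000126058), -0.025 to 0.011 (MDP0000204591, not well above background in either group), -0.25 to 0.52 (MDP0000265046), -0.185 to 0.10 (MDP0000503248) and -0.50 to 0.46 (MDP0000670959). Median centring gave -0.094 for MDP0000219522, -0.11 for MDP0000295938, 0.038 for MDP0000204591 and -0.038 for MDP0000232225, processed signals 0.004 for MDP0000289320, 0.39 for MDP0000204591, 0.25 for MDP0000503248 and 0.008 for MDP0000670959, and no background correction 0.003 for MDP0000670959. The cause was not tested. Ratios of genes near background are drawn toward 0, and 2 extracts per group limit the precision.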
